A study of Homo sapiens with 12 samples.

Results

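The genes of the cytosolic ribosomal proteins were followed across 4 groups of ARPE-19 cells, an established human line that arose from retinal pigment epithelium (RPE). They were taken as the lines typed protein_coding whose symbol starts with RPL or RPS, leaving out the ribosomal S6 kinases, the RPS4 names and RPS19BP1, which is not a subunit protein. The rule found 88 genes among 60605 lines, of which 40591 carry a symbol. Large-subunit names (RPL) made up 53 of them and small-subunit names (RPS) 32. The other 3 are readthrough genes joined to a neighbour, RPL17-C18orf32, RPL36A-HNRNPH2 and RPS10-NUDT3. One small-subunit name, RPS27AP5, reads like a pseudogene but is typed protein_coding in the deposited table.

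Poly(A) RNA was sequenced in 12 libraries, 3 per group, from cells labelled WT and from stable lines labelled GFP, GSTA4 and OSK. Per the series' description the lines had expressed their open reading frame (ORF) for 4 days, and the data served a gene set enrichment analysis. GFP is a fluorescent protein and so a control ORF, GSTA4 is a glutathione transferase that detoxifies aldehydes of lipid peroxidation, and OSK was read as the reprogramming factors POU5F1 (OCT4), SOX2 and KLF4. The sources used here do not name a vector or promoter, do not say whether a line is a single clone, how the WT cells were cultured, or whether replicates are separate cultures. The p-values below therefore measure the spread between libraries, which may be technical, and a difference between lines cannot be told apart from the effect of the ORF. In bulk RNA, fewer cells of a type and less RNA per cell cannot be told apart either.

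The GSTA4 and OSK lines carried the RNA their names call for, while RNA of the GFP ORF was not examined. GSTA4 stood at 396 to 431 CPM (reads scaled to a common library total, with TMM factors) in its own line and at 4.42 to 22.5 CPM in the other 9 libraries, with OSK highest among those. POU5F1, SOX2 and KLF4 stood between 623 and 949 CPM in OSK and at or below 2.67 CPM elsewhere. Of 13 RPE markers 12 exceeded 1 CPM in WT and GFP and 11 in GSTA4 and OSK, but RPE65, the defining visual cycle isomerase, stayed at group means of 0.0229 to 0.495 CPM. The summed RPE markers were 2570 to 2789 CPM in WT, 2322 to 2662 CPM in GFP, 1760 to 1835 CPM in GSTA4 and 1509 to 1568 CPM in OSK. Of the 12 tested, 8 were called higher and 2 lower in GFP than in WT (66.7% and 16.7%, against 11.0% and 11.2% of all genes). In GSTA4 2 were called higher and 8 lower than in GFP (16.7% and 66.7%, against 14.7% and 14.6%). All 12 were called lower in OSK than in GFP, against 22.8% of all genes. The 7 mesenchymal markers summed to 967 to 1007 CPM in OSK and to 1316 to 1630 CPM in the other groups. All 5 tested were called lower in OSK than in GFP, while in GSTA4 2 were called higher and 2 lower than in GFP. The part of these markers in the ribosomal protein results was not tested. The 6 pluripotency markers summed to 1.24 to 4.49 CPM in any library, and NANOG, DPPA4, TDGF1 and ZFP42 had no read in OSK. Total counts per library ran from 12630675 to 17045454. GFP replicate 1 stood apart with 27349 named genes detected against 19488 to 22073 in the other 11 libraries, so counts of members called against GFP are also given without it, as are the named values whose call it ends or makes or which it moves by over 1.5 times.

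Each ribosome is built from a large and a small subunit that need most of their proteins in equal numbers. The genes are known for being expressed together. Their mRNAs carry a terminal oligopyrimidine (TOP) tract, an unbroken run of C and T letters in the DNA that begins at the cap. Through this tract the mTORC1 kinase pathway and the RNA-binding protein LARP1 govern their translation and stability. Several ribosomal proteins act outside the ribosome too, among them RPL5 and RPL11, which restrain the p53 inhibitor MDM2.

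The start sites show the feature that most members share. RefSeq promoter entries on GRCh38.p14 were matched for 69 of the 88 members, with 86 annotated starts. An unbroken run of at least 8 C or T letters, lying between 10 bases before and 20 bases from the start on, was present at 60 of the 86 starts (69.8%), against 12.7% of 21335 starts of other protein-coding genes. The hexamer CTTTCC, searched on the sense strand of that same stretch and able to lie inside the run, occurred at 24.4% of member starts and 1.53% of the others. Windows of 60 bases, 40 before the start and 20 from the start on, are shown for the members the results turn on. These are the 3 largest called falls of OSK against GSTA4, then 3 of the 4 members higher in OSK than in GFP, RPS3, and finally paralogs beside their parent gene. Letters run 5′ to 3′ on the gene's strand, and capitals mark the longest C or T run inside the stretch searched; a run that goes on upstream of that stretch, as in RPL36AL and RPL26L1, is marked only in part.
RPL12: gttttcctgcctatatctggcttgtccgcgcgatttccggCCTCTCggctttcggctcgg
RPL36: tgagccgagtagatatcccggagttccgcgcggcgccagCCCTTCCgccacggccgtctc
RPL22: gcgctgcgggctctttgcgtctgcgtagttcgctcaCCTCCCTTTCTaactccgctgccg
RPL36AL: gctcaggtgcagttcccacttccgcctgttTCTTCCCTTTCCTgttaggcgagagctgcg
RPS21: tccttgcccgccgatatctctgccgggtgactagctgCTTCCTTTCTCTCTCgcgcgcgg
RPL7L1: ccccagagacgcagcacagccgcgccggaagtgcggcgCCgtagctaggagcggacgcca
RPS3: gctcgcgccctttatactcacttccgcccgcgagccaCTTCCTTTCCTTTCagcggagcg
RPS27: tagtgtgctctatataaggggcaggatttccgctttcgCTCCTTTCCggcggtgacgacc
RPS27L: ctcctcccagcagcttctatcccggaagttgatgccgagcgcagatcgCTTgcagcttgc
RPL26: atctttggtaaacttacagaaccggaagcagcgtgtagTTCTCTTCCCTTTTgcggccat
RPL26L1: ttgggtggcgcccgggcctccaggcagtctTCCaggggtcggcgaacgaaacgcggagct
RPL22L1: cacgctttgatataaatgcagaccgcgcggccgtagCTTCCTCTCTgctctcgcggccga

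These windows lie at chr9:127451387-127451446 (minus strand) for RPL12, chr19:5690255-5690314 (plus) for RPL36, chr1:6199576-6199635 (minus) for RPL22 and chr14:49620607-49620666 (minus) for RPL36AL. RPS21 is at chr20:62387063-62387122 (plus), RPL7L1 at chr6:42879576-42879635 (plus) and RPS3 at chr11:75399478-75399537 (plus). RPS27 is at chr1:153990722-153990781 (plus) and RPS27L at chr15:63157458-63157517 (minus). RPL26 is at chr17:8383174-8383233 (minus), RPL26L1 at chr5:172958689-172958748 (plus) and RPL22L1 at chr3:170870176-170870235 (minus). The run was 11 bases in RPL22, 15 in RPS21 and 9 in RPS27, but 2 in RPL7L1 and 3 in RPS27L. RPL26L1 has 3 bases of a run inside the stretch and 6 in all, and RPL36AL 13 and 15. RPL22L1, also a paralog, has a run of 10 bases. Among tested members with an entry, 55 had a run of at least 8 bases inside the stretch searched and 11 a shorter one there. The 2 classes had medians of the same sign in every comparison. RPL17 was counted among the 11, with 6 bases inside the stretch but 16 in all. The median log2 fold changes were 0.22 and 0.37 in GSTA4 against GFP, and -0.39 and -0.52 in OSK against GSTA4. The last of these is the value of RPL17 itself, so it does not describe a gene with a short run. Members with no entry matched included RPL23, RPL23A, RPL30, RPL37, RPL39L, RPL3L, RPL5, RPL7, RPL8, RPS10-NUDT3, RPS15A, RPS2, RPS20 and RPS27AP5.

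The members are among the most abundant mRNAs of these cells, and 83 of the 88 passed the filter on low counts, 51 RPL and 32 RPS. Their mean level over the 12 libraries had a median of 574 CPM, and 74 of the 83 reached 100 CPM. RPL13A, a protein often used as a reference gene, was highest at 2909 CPM, and RPS27AP5 lowest at 1.56 CPM. Per kilobase of coding sequence RPL13A again led with 4776 CPM, followed by RPL41 with 3514 CPM and the stalk protein RPLP1 with 3378 CPM. The 9 tested members under 100 CPM included RPS27AP5, RPS10, RPL39L, RPL36A, RPL26L1, RPL17, RPL22L1 and RPL26. Several of these share sequence with other lines, so their levels are uncertain. RPS10 had 238 reads on its pseudogene lines per 100 of its own and shares 39.4% of its exon bases with RPS10-NUDT3. RPL26 and RPL36A had 61.8 and 61.3 pseudogene reads per 100. The 5 members that were not tested were the 3 readthrough genes, the testis paralog RPL10L and the muscle paralog RPL3L, with at most 25 reads in any library. RPL3L had 3 reads in each WT library, 5, 9 and 4 in GFP, 12, 6 and 25 in GSTA4 and 0 in each OSK library.

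Taken as a block, ribosomal protein mRNA took the largest share of reads in GSTA4. Members held 4.72%, 5.04% and 4.86% of all reads in the WT libraries, with a mean of 4.87% ± 0.157 (SD, n = 3). In GFP they held 5.07%, 5.79% and 5.66%, with a mean of 5.51% ± 0.383 (n = 3). The GSTA4 libraries, at 6.23%, 6.58% and 6.35% with a mean of 6.39% ± 0.176 (n = 3), lay above all the other libraries. In OSK the shares were 4.66%, 4.75% and 4.86%, with a mean of 4.76% ± 0.0979 (n = 3), within or below the range of WT. Reads on mitochondrially encoded genes also took their largest share in GSTA4, 7.50% to 7.78% against 5.95% to 6.86% in the other groups, and the order of the ribosomal shares was the same with these reads left out of the total (GSTA4 6.92%, GFP 5.88%, WT 5.18% and OSK 5.10%). Reads on ribosomal protein pseudogenes amounted to 2.39 to 2.80 per 100 member reads in every library.

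In the GSTA4 libraries 82, 83 and 82 of the 83 tested members lay above their own mean over the 12 libraries, by a median of 0.22, 0.31 and 0.26 on the log2 scale. The medians were -0.21, -0.072 and -0.13 in WT and -0.16, -0.14 and -0.11 in OSK. GFP was split, since its replicates 2 and 3 stood at 0.11 and 0.096, while replicate 1 stood at -0.14, among the WT and OSK libraries. The group mean was highest in GSTA4 for 79 of the 83 members. The exceptions, named after their values were seen, were RPS3 and RPS13, highest in GFP, and RPL8 and RPS21, highest in OSK. An F test for any difference among the 4 groups (edgeR quasi-likelihood, Benjamini-Hochberg adjusted over 15179 genes) called 78 of the 83, against 66.9% of all genes tested. The 5 it did not call were RPL39L, RPS10, RPS12, RPS16 and RPS27AP5.

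**Figure D1:**
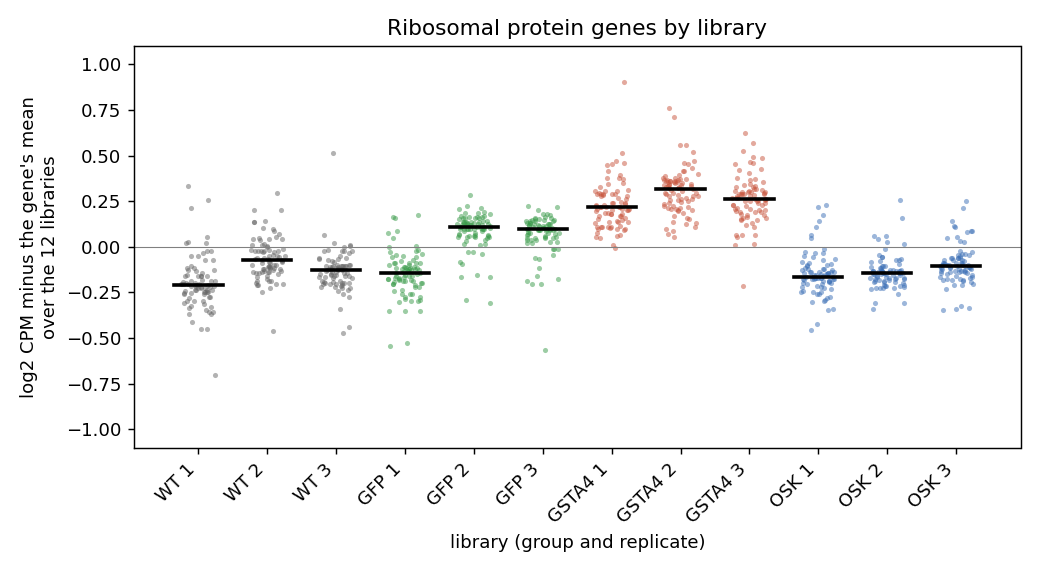
Each point is a tested ribosomal protein gene in a library, as log2 CPM minus that gene's mean over the 12 libraries, and black bars are medians. The GSTA4 bars lie at 0.22 to 0.31, the WT and OSK bars below 0, and GFP replicate 1 at -0.14 lies apart from GFP replicates 2 and 3.

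Against the GFP line, the GSTA4 line had more ribosomal protein mRNA across both subunits. The edgeR quasi-likelihood test called 55 of the 83 members higher and 0 lower, where 29.2% of all genes tested were called, 14.7% higher. The median member change was 0.22 on the log2 scale (1.17-fold), against 0.0082 for all genes tested, and 81 of the 83 fitted changes were above 0. No member was lower at an unadjusted p under 0.05 either, and DESeq2 called 60 higher and 0 lower. In 63 members the 3 GSTA4 libraries lay wholly above the 3 GFP libraries, which holds for 22.4% of all genes. No member lay wholly below, as 19.9% of all genes did. Calls covered 40 of 51 large-subunit and 15 of 32 small-subunit members, with median changes of 0.24 and 0.19. The changes were small, and 7 of the 55 called members reached 0.5 on the log2 scale. Without GFP replicate 1 the count was 35 higher and 1 lower of 84 tested (22.6% of all genes called, 10.9% higher), with a median of 0.16. All 35 were among the 55, and the member that became lower was RPS3, at -0.15 ± 0.053 (SE, edgeR adjusted p = 0.0473). Leaving out GSTA4 replicate 2 left 35 members called, all higher, where 22.1% of all genes were called, 11.1% higher.

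The largest called rises against GFP were RPS10, RPL36A and RPL36, and of these only RPL36 is abundant. RPL36, a protein of the large subunit, was at 168, 210 and 213 CPM in GFP and at 297, 315 and 293 CPM in GSTA4. The groups did not overlap, and the log2 fold change was 0.62 ± 0.079 (SE, adjusted p = 5.06e-06 by edgeR); it was 0.51 without GFP replicate 1. RPL36A was at 4.49, 4.16 and 4.48 CPM in GFP and at 5.97, 8.63 and 7.84 CPM in GSTA4, a change of 0.77 ± 0.18 (adjusted p = 0.00304 by edgeR). RPS10 had 14, 24 and 9 reads in GFP and 45, 28 and 33 in GSTA4. Its change of 1.09 ± 0.40 (adjusted p = 0.0457 by edgeR) rested on these few reads, and the call ended in 9 of the 12 fits that left out 1 library, among them GFP replicate 1 (adjusted p = 0.108).

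The members that did not pass in GSTA4 against GFP numbered 28, and they included the whole ribosomal stalk. The stalk is the mobile arm of RPLP0, RPLP1 and RPLP2 that recruits translation factors. RPLP0 was at 1401, 1764 and 1781 CPM in GFP and at 1686, 1887 and 1844 CPM in GSTA4, with overlap, and its fitted difference was 0.13 ± 0.079 (adjusted p = 0.236 by edgeR). The differences of RPLP1 and RPLP2 were 0.18 ± 0.077 and 0.12 ± 0.074. Without GFP replicate 1 the 3 stalk values were smaller, at 0.027, 0.077 and 0.035 in the order RPLP0, RPLP1 and RPLP2. RPS6, the substrate of the S6 kinases, also missed the threshold, at 1114, 1339 and 1285 CPM in GFP and 1341, 1472 and 1415 CPM in GSTA4 (0.18 ± 0.070, adjusted p = 0.0607 by edgeR). So did RPSA, which doubles as a laminin receptor, at 0.091 ± 0.066, and RPS27A, which is made as a fusion with ubiquitin, at 0.17 ± 0.066. RPS6 stood at 0.10 and RPSA at 0.021 without GFP replicate 1. DESeq2 called RPS6 higher here, as did edgeR without GFP replicate 2, and edgeR without GSTA4 replicate 1 called RPS27A higher.

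The 5 tested members on chromosome 11 were all among those not called in this comparison. RPL27A, RPLP2, RPS13, RPS25 and RPS3 had a median change of 0.029 in GSTA4 against GFP, and the other 783 placed genes of chromosome 11 a median of -0.15. RPS3, part of the mRNA entry channel, lies at chr11:75399486-75422280 (GENCODE 29 annotation of GRCh38). The 72 other tested genes within 5 Mb of it had a median of -0.30, against its own -0.078. RPS25, RPS13 and RPL27A stood at 0.029, -0.038 and 0.066 with neighbours at -0.19, -0.20 and -0.11. RPLP2 differed in this, at 0.12 with 75 neighbours at a median of 0.060. Without GFP replicate 1 RPS25, RPS13, RPL27A and RPLP2 were at -0.034, -0.0996, -0.00028 and 0.035. These windows were chosen after the values were seen, and the part of the chromosome in the members' values was not tested. Against WT, RPS3 was at 1318, 1321 and 1328 CPM in WT and at 1421, 1539 and 1494 CPM in GSTA4, wholly above.

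In the OSK line ribosomal protein mRNA was lower than in GFP for many members, by small amounts. The test called 36 members lower and 4 higher of 83, where 45.9% of all genes were called, 22.8% lower and 23.1% higher. The share called in either direction, 48.2%, was thus near the background, while the calls went mostly one way. The median member change was -0.16 (0.892-fold), against -0.019 for all genes, and 69 of the 83 fitted changes were below 0. OSK lay wholly below GFP in 30 members and wholly above in 5, against 27.2% and 27.5% of all genes. No called change reached 0.5 in size. This comparison leaned on single libraries: it gave 4 higher and 64 lower without GFP replicate 1 (of 84 tested, 41.0% of all genes called, 20.4% lower), with a median of -0.24. It gave 3 higher with 16 lower without GFP replicate 2 (40.2% of all genes called, 19.6% lower), and 3 higher with 20 lower without GFP replicate 3 (20.7%) and again without OSK replicate 1 (19.3%). Those 3 counts are near the background share. Scaling by library size gave 3 higher and 60 lower, and upper quartile scaling 3 and 56, with 27.5% and 27.2% of all genes called lower. These 2 scalings moved the median of all genes to -0.091 and -0.084, beside member medians of -0.24 and -0.23.

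RPL22 fell most among the members against GFP. It binds RNA, and its loss is known to raise its paralog RPL22L1. It was at 185, 194 and 187 CPM in GFP and at 127, 141 and 137 CPM in OSK. The groups were far apart, and the fitted difference was -0.48 ± 0.066 on the log2 scale (SE, adjusted p = 4.44e-06 by edgeR). RPL17 followed at -0.43 ± 0.13 (adjusted p = 0.0109 by edgeR), from 27.4, 25.5 and 28.5 CPM in GFP to 19.2, 21.7 and 19.6 CPM in OSK. It shares 32.7% of its exon bases with other genes on its strand, RPL17-C18orf32 among the overlapping genes, so its reads may be split. RPL26, which is also known to bind p53 mRNA, was at 32.5, 33.3 and 30.7 CPM in GFP and at 23.1, 25.8 and 25.3 CPM in OSK, a fall of 0.38 on the log2 scale (adjusted p = 0.00317 by edgeR).

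RPL8, RPL36AL, RPS21 and RPL7L1 were the 4 members higher in OSK than in GFP. RPL8, which lines the catalytic core of the large subunit, was at 1335, 1610 and 1649 CPM in GFP and at 1994, 2034 and 2031 CPM in OSK. All OSK libraries exceeded all GFP libraries, by 0.40 ± 0.071 on the log2 scale (SE, adjusted p = 0.000101 by edgeR). RPL36AL went from 98.5, 109 and 116 CPM to 137, 135 and 140.5 CPM, a change of 0.35 ± 0.068 (adjusted p = 0.000255 by edgeR). RPS21, a small-subunit protein, was at 196, 233 and 230 CPM in GFP and 264, 250 and 260 CPM in OSK (0.23 ± 0.067, adjusted p = 0.00791 by edgeR). All 4 were also called higher in GSTA4 than in GFP, and none of them passed the threshold between OSK and GSTA4, where scaling by library size or upper quartile called RPL36AL lower. The rise of RPL7L1, 0.17 ± 0.062 (adjusted p = 0.0315 by edgeR), lost its call in edgeR without GFP replicate 2 or 3 or any single OSK replicate (adjusted p = 0.0968 without GFP replicate 2). Its rise in GSTA4 lost the call without GFP replicate 2 or 3 or GSTA4 replicate 2 (edgeR adjusted p = 0.0586, 0.0649 and 0.0633). The rise of RPS21 in GSTA4 did so without GFP replicate 1 and without GSTA4 replicate 1 or 2 (edgeR log2 fold change 0.13 and adjusted p = 0.14 without GFP replicate 1). RPL36AL and RPS21 carry long C or T runs at their starts and RPL7L1 does not, as the windows above show.

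**Figure D2:**
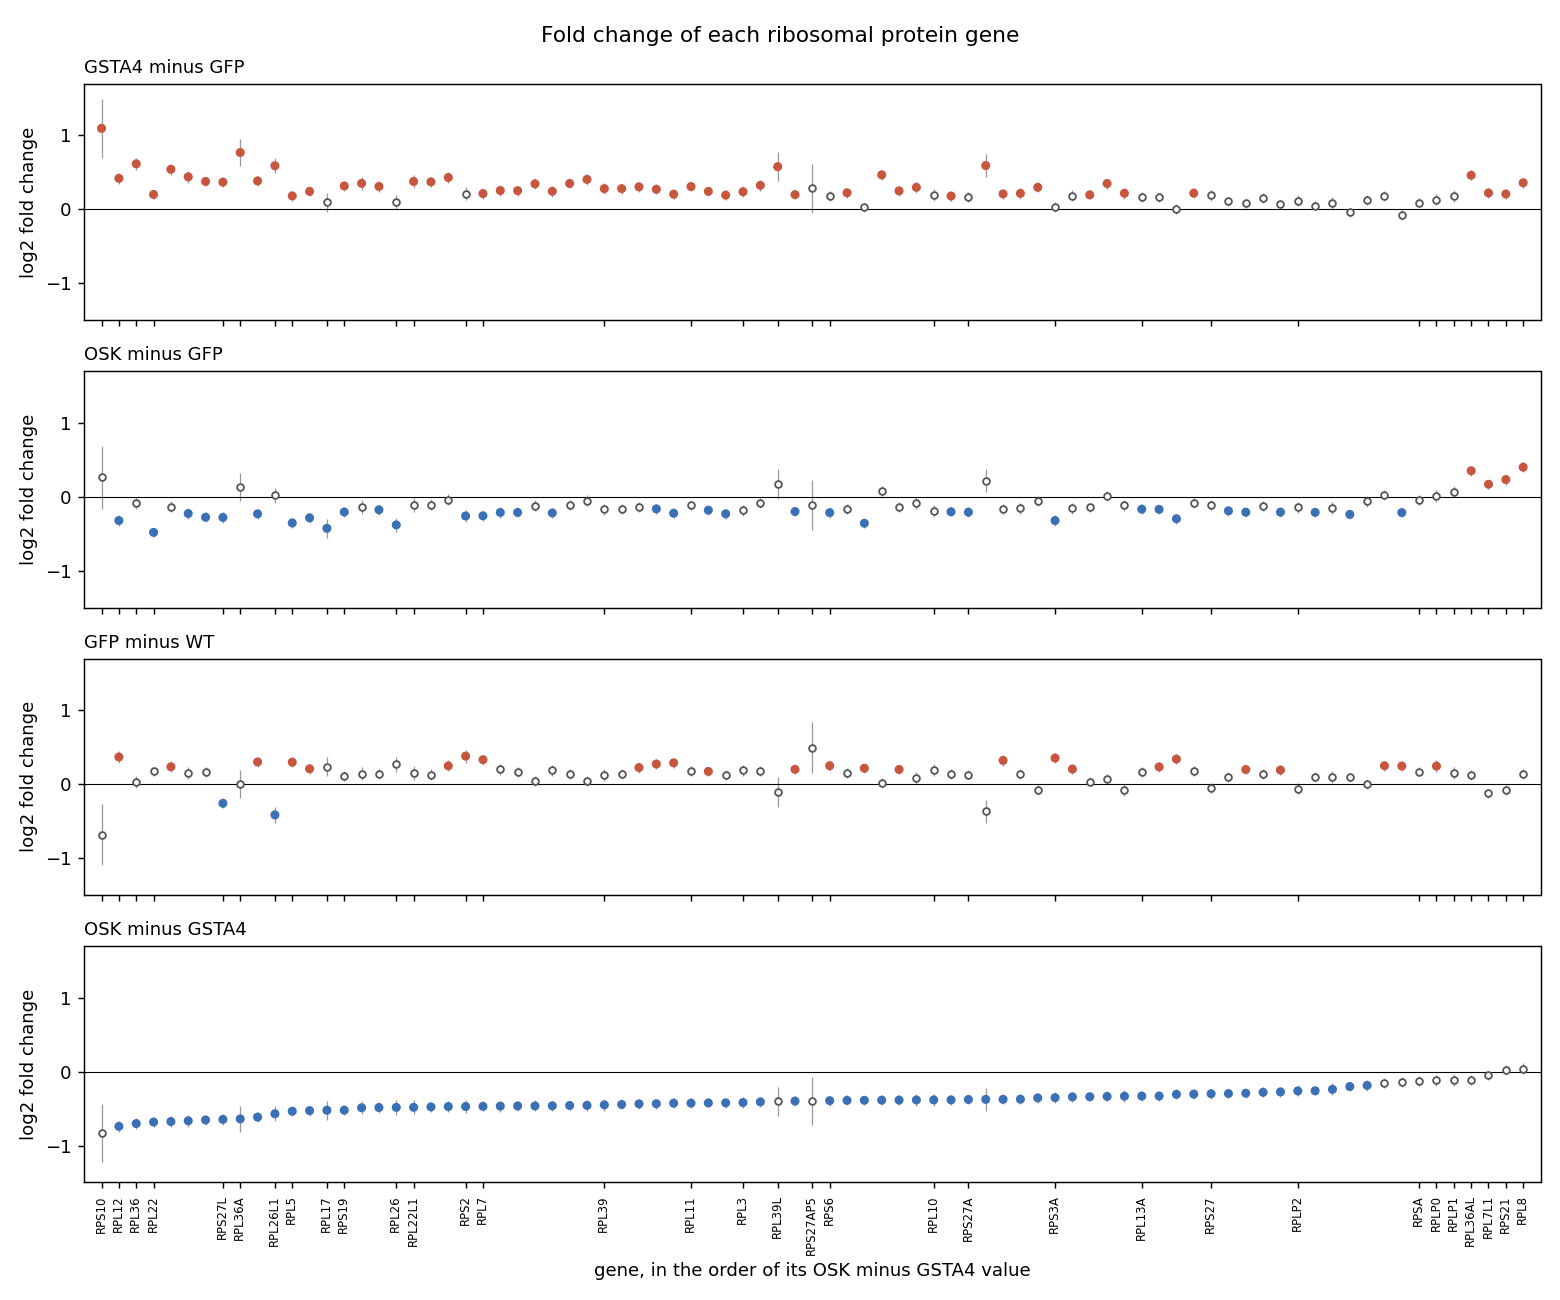
Log2 fold change of each of the 83 tested members with its SE, 1 panel per comparison; filled points passed the threshold (red higher, blue lower) and open points did not. Genes keep the order of OSK minus GSTA4 in every panel, the named ones are labelled, and RPL36AL, RPL7L1, RPS21 and RPL8 stand at the right end, above 0 in the upper 2 panels.

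Set directly against each other, the OSK and GSTA4 lines differed in most members, and every called difference was toward less in OSK. Of 83 members 71 were called lower and 0 higher, where 47.8% of all genes were called, 23.8% lower. The median was -0.40 (0.759-fold), against -0.014 for all genes. No member was higher at an unadjusted p under 0.05, and DESeq2 called 70 lower and 0 higher. OSK lay wholly below GSTA4 in 76 members, against 29.2% of all genes (58.0% lay apart in either direction), and 14 of the called falls reached 0.5 in size. Leaving out any single library of the 12 kept the number called between 68 and 75; without GFP replicate 1 it was 75, where 48.1% of all genes were called. The 12 members not called were RPL36AL, RPL39L, RPL7L1, RPL8, RPLP0, RPLP1, RPS10, RPS14, RPS21, RPS27AP5, RPS3 and RPSA. This comparison does not set a line against GFP, and neither do those of GSTA4 and of OSK with WT given below. GFP replicate 1 entered the comparison of OSK with GSTA4 through the shared estimate of spread.

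RPL12, which sits at the base of the stalk, showed the largest called fall. It was at 895, 989 and 941 CPM in GSTA4 and at 544, 560 and 586 CPM in OSK. With no overlap, OSK differed by -0.74 ± 0.077 on the log2 scale (SE, adjusted p = 7.72e-08 by edgeR). RPL36 was at 185, 183 and 189 CPM in OSK, below the 293 to 315 CPM of GSTA4, at -0.70 ± 0.079 (adjusted p = 2.63e-07 by edgeR). RPL22 differed by -0.68 ± 0.066 (adjusted p = 2.67e-08 by edgeR), with 200, 226 and 224 CPM in GSTA4. RPS19, the gene most often mutated in Diamond-Blackfan anaemia, was at 787, 824 and 792 CPM in GSTA4 and 542, 566 and 566 CPM in OSK, a fall of 0.52 on the log2 scale (adjusted p = 1.23e-06 by edgeR). RPL13A, the most abundant member, was at 3287, 3468 and 3263 CPM in GSTA4 and at 2620, 2648 and 2699 CPM in OSK, at -0.33 ± 0.068 (adjusted p = 0.000378 by edgeR).

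RPL5 and RPL11 bind the 5S ribosomal RNA and MDM2 as a unit, and both were lower in OSK than in GSTA4. RPL5 was at 917, 979 and 986 CPM in WT, 1089, 1220 and 1233 CPM in GFP, 1271, 1388 and 1356 CPM in GSTA4 and 884, 926 and 959 CPM in OSK. The GFP and GSTA4 libraries lay above all WT and OSK libraries. OSK differed from GSTA4 by -0.54 ± 0.064 and from GFP by -0.36 ± 0.064 (adjusted p = 5.52e-07 and 0.000115 by edgeR). RPL11 was at 430, 486 and 462 CPM in WT, 465, 540 and 552 CPM in GFP, 630, 662 and 635 CPM in GSTA4 and 470, 470 and 493 CPM in OSK. Its GSTA4 libraries stood above the rest, by 0.31 ± 0.067 over GFP (adjusted p = 0.00146 by edgeR), and OSK against GFP was -0.12 ± 0.067 and did not pass. Without GFP replicate 1 that difference was -0.19 ± 0.059 and passed (adjusted p = 0.015 by edgeR).

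**Figure D3:**
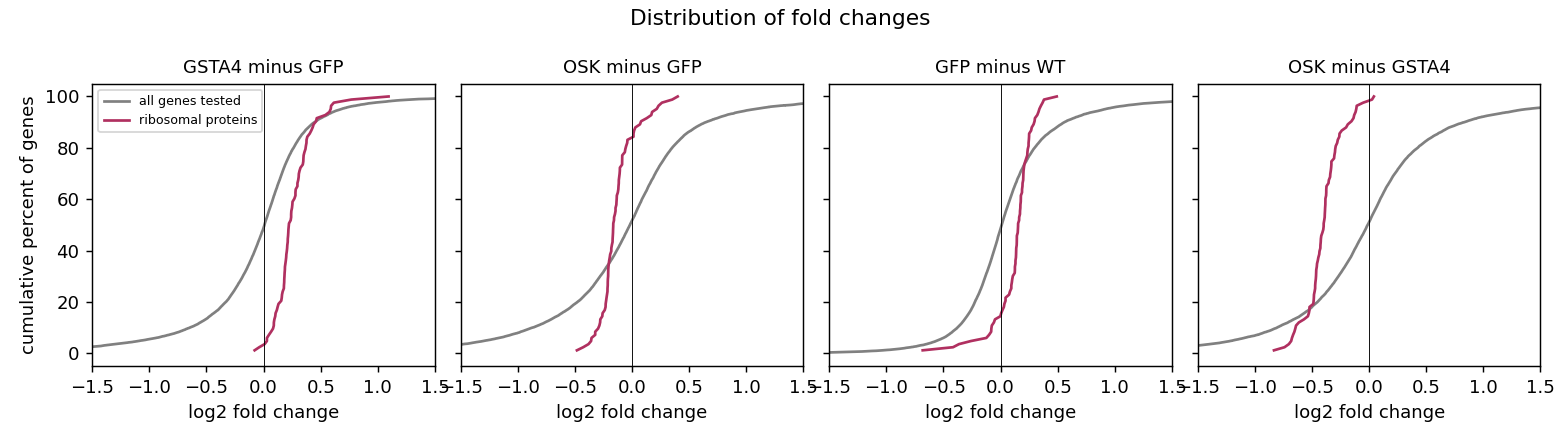
Cumulative percent of genes against log2 fold change, for the 83 tested members (red) and all 15179 genes tested (grey), 1 panel per comparison; genes beyond 1.5 in size lie outside the axis. The member curve is steeper than that of all genes in each panel and its median lies to the right in GSTA4 minus GFP and GFP minus WT and to the left in the OSK panels.

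The control line itself differed from WT in part of the members. GFP was called higher than WT in 26 members and lower in 2, RPL26L1 and RPS27L, where 22.2% of all genes were called, 11.0% higher and 11.2% lower. The median member change was 0.15 (1.11-fold), against 0.0098 for all genes, and no called change reached 0.5. GFP lay wholly above WT in 22 members and wholly below in 3, against 16.9% and 17.7% of all genes. Without GFP replicate 1 there were 53 higher and 3 lower of 84 tested (19.1% of all genes called, 9.94% higher and 9.12% lower), with a median of 0.23. Without GFP replicate 2 there were 10 higher and 2 lower (7.23% of all genes higher), and without GFP replicate 3, or without WT replicate 1, 15 higher and 2 lower (8.67% and 7.67% of all genes higher). Fitting only the 6 libraries compared gave 12 higher and 2 lower (8.18% of all genes higher), and upper quartile scaling 42 and 2 (13.7%).

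RPS2, RPL12 and RPS3A had the largest called rises in GFP. RPS2, a small-subunit protein near the mRNA entry site, was at 857, 1012 and 1047 CPM in WT and at 1083, 1352 and 1360 CPM in GFP. Without overlap it was higher by 0.38 ± 0.087 (SE, adjusted p = 0.00386 by edgeR); its pseudogene lines held 31.8 reads per 100 of its own. RPL12 went from 490, 579 and 569 CPM to 621, 762 and 731 CPM, a rise of 0.37 ± 0.077 (adjusted p = 0.00189 by edgeR). RPS3A went from 551, 603 and 575 CPM to 680, 800 and 728 CPM, a rise of 0.35 ± 0.070 (adjusted p = 0.00129 by edgeR). RPS3A then differed little between GFP and GSTA4, where it was at 682, 786 and 786 CPM, a difference of 0.030 ± 0.070 (-0.024 without GFP replicate 1).

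With WT in place of GFP as the reference, the GSTA4 result was larger and the OSK result was nearly gone. GSTA4 was called higher than WT in 68 of 83 members and lower in 0, where 38.6% of all genes were called, 19.7% higher, and the median was 0.40. OSK was called higher than WT in 6 and lower in 5, or 11 of 83, where 45.4% of all genes were called, 22.7% higher and 22.7% lower, with a median of -0.0032. Named after their values were seen, the 6 higher were RPL8, RPL36AL, RPS14, RPLP0, RPLP1 and RPL35, led by RPL8 at 0.53 ± 0.071. The 5 lower were RPS27L, RPL26L1, RPL22, RPL23A and RPLP2, led by RPS27L at -0.54 ± 0.070. Of the 36 members lower in OSK than in GFP, only RPL22 and RPS27L were also lower than in WT. The comparisons share libraries, GSTA4 and OSK their reference and GFP its place on both sides, so their values are set side by side and not compared further.

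Paralogs did not always follow their parent gene. Ratios of reads were compared as descriptions, since the paralogs of a pair are close in sequence and reads can be split. RPS27L, a p53-induced copy of RPS27, was at 122.9, 118 and 107 CPM in WT, 90.4, 106 and 95.0 CPM in GFP, 122, 132 and 122 CPM in GSTA4 and 76.8, 81.3 and 81.7 CPM in OSK. Its OSK libraries were the lowest of all, and it was called in every comparison, by -0.26 ± 0.069 in GFP against WT, 0.37 ± 0.069 in GSTA4 and -0.28 ± 0.070 in OSK against GFP, and -0.65 ± 0.070 in OSK against GSTA4 (adjusted p = 0.0108, 0.000399, 0.00272 and 1.36e-07 by edgeR). RPS27 itself passed in OSK against GSTA4, at -0.30 ± 0.071. It missed the threshold in GSTA4 against GFP, at 0.19 ± 0.071 (edgeR adjusted p = 0.0527), where DESeq2 called it higher (adjusted p = 0.0386), and in OSK against GFP, at -0.11, where the fit without GFP replicate 1 called it lower (-0.18 ± 0.066, edgeR adjusted p = 0.0325). Without GFP replicate 1 the GSTA4 against GFP value of RPS27 was 0.12 ± 0.066 (edgeR adjusted p = 0.238). Per 100 RPS27 reads OSK had 16.99 ± 1.34 RPS27L reads, GFP 19.1 ± 1.25, GSTA4 21.6 ± 0.172 and WT 22.1 ± 1.86 (SD, n = 3).

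RPL22L1 took its largest part beside RPL22 in OSK. It was at 25.5, 30.8 and 23.6 CPM in GFP, 33.7, 35.7 and 34.3 CPM in GSTA4 and 24.5, 24.0 and 25.7 CPM in OSK. Its change in OSK against GFP, -0.11 ± 0.096, did not pass, whereas RPL22 fell, so the reads of RPL22L1 per 100 of RPL22 were 14.1 ± 1.66 in GFP, 14.3 ± 0.921 in WT, 15.995 ± 0.782 in GSTA4 and 18.4 ± 1.19 in OSK (SD, n = 3). The 3 OSK ratios, 19.4, 17.1 and 18.7, lay above the other 9. RPL22L1 rose in GSTA4 against GFP by 0.38 ± 0.094 (adjusted p = 0.00468 by edgeR) beside a rise of RPL22 of 0.20 ± 0.065, which lost its call without GFP replicate 1 or 3 or GSTA4 replicate 2 or 3 (edgeR adjusted p = 0.0721 without GFP replicate 1).

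RPL26L1, a near copy of RPL26 of the same coding length, was nearest to RPL26 in abundance in WT. It was at 26.1, 27.7 and 22.2 CPM in WT, 18.4, 18.2 and 20.2 CPM in GFP, 30.8, 28.2 and 26.4 CPM in GSTA4 and 20.5, 19.3 and 17.7 CPM in OSK. GFP and OSK lay below WT and GSTA4, with -0.42 ± 0.10 in GFP against WT, 0.59 ± 0.10 in GSTA4 against GFP and -0.57 ± 0.10 in OSK against GSTA4 (adjusted p = 0.0066, 0.000181 and 9.48e-05 by edgeR). RPL26L1 reads per 100 RPL26 reads were lowest in GFP at 59.0 ± 5.92, then 78.0 ± 9.72 in OSK, 83.6 ± 14.1 in GSTA4 and 94.9 ± 11.97 in WT (SD, n = 3). RPL7L1 had 10.3 ± 0.656 reads per 100 of RPL7 in WT and 10.0 ± 0.415 in OSK, but 7.50 ± 1.08 in GFP and 7.50 ± 0.469 in GSTA4. RPL7 was higher in GFP than in WT by 0.33 ± 0.068 and lower in OSK than in GSTA4 by a fitted change of -0.47 ± 0.068 (adjusted p = 0.00154 and 6.91e-06 by edgeR). In these comparisons RPL7L1 was at -0.12 and -0.052 and was not called. Without GFP replicate 1 it was called lower in GFP than in WT (-0.18 ± 0.062, edgeR adjusted p = 0.0458). RPL36AL outnumbered RPL36A in every group, with group means of 2016 to 2877 reads per 100. RPL39L held 2.21 to 2.76 reads per 100 of RPL39, RPL3L at most 0.054 per 100 of RPL3 in any library, and RPL10L had 1 read in a WT and in a GFP library and 0 elsewhere, beside group means of 698 to 911 CPM of RPL10.

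**Figure D4:**
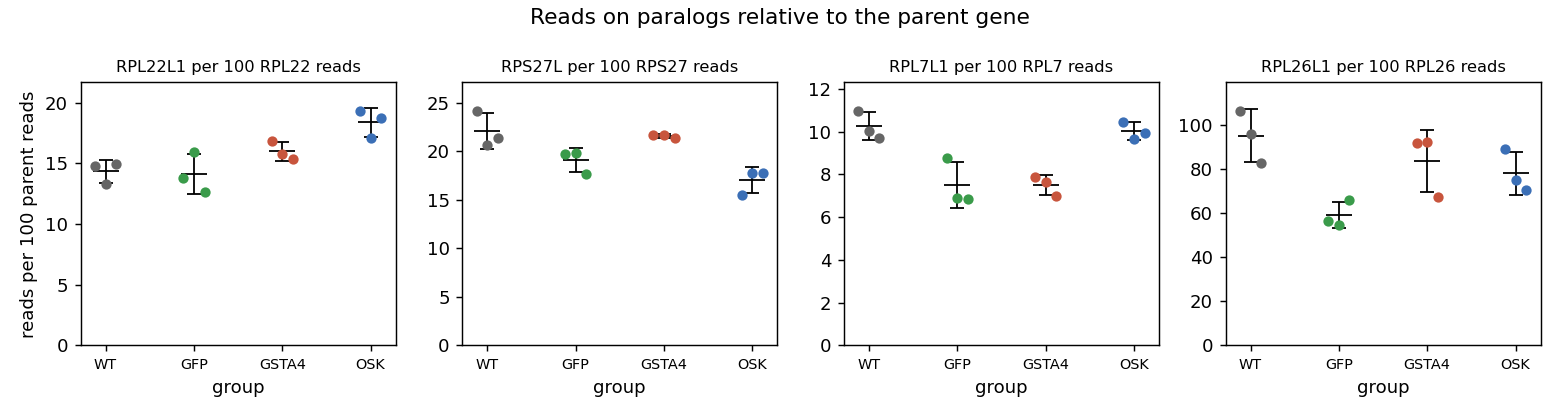
Reads on a paralog per 100 reads on its parent gene in each library (points), with the group mean and SD (bars, n = 3). The OSK points of RPL22L1 lie above all others, those of RPS27L include the lowest of that panel, and GFP is lowest for RPL26L1.

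Coding length ran with the change in GFP against WT at a Spearman rho of 0.44 over 82 members, and at -0.26, -0.25 and 0.069 in GSTA4 against GFP, OSK against GFP and OSK against GSTA4. These are correlations across genes of the same libraries, which are not independent. In GSTA4 against GFP, 20 of 29 members with under 400 coding bases, 21 of 31 of middle length and 14 of the 22 longest were called, all higher. The 9 tested members under 100 CPM had a median of 0.58 in that comparison and the 74 others 0.22.

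Short and abundant genes in general leaned the members' way in GSTA4 against GFP and the opposite way in the other comparisons. Among 297 other protein-coding genes of at most 750 coding bases and at least 100 CPM, a list chosen after values were seen, 98 were higher and 59 lower in GSTA4 against GFP (33.0% and 19.9%, against 14.7% and 14.6% of all genes), with a median of 0.073. In OSK against GSTA4 119 were higher and 79 lower (40.1% and 26.6%, against 24.1% and 23.8% of all genes), with a median of 0.071, opposite in sign to the members' -0.40. OSK against GFP gave 141 higher and 73 lower (47.5% and 24.6%, against 23.1% and 22.8%), with a median of 0.14 beside the members' -0.16. In GFP against WT 30 were higher and 69 lower (10.1% and 23.2%, against 11.0% and 11.2%), with a median of -0.034 beside the members' 0.15. Of 183 tested pseudogene lines of the family 18 were higher and 2 lower in GSTA4 against GFP (9.84% higher, below the share of all genes), and without GFP replicate 1 the counts were 4 and 1. In OSK against GSTA4 51 were lower and 0 higher (27.9% lower, near the share of all genes), and the medians were 0.29 and -0.41. Such lines hold reads that could come from the parent mRNA, which was not tested.

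FAU and RACK1 encode proteins of the small subunit whose names fall outside the rule, and both were higher in GSTA4 than in GFP. FAU is made as a fusion with a ubiquitin-like protein, and RACK1 is a scaffold. FAU was at 98.6, 131.1 and 122.6 CPM in GFP, 132.9, 148.0 and 138.5 CPM in GSTA4 and 129.6, 133.7 and 125.7 CPM in OSK. Its GSTA4 values were all above its GFP values, with a fitted change of 0.25 ± 0.081 (adjusted p = 0.0249 by edgeR), but without GFP replicate 1 it was 0.14 ± 0.068 and not called (edgeR adjusted p = 0.156). RACK1 was at 1325, 1563 and 1600 CPM in GFP, 1794, 1877 and 1848 CPM in GSTA4 and 1269, 1303 and 1344 CPM in OSK. Its OSK values overlapped GFP replicate 1 alone, and it changed by 0.30 ± 0.068 in GSTA4 and -0.20 ± 0.068 in OSK against GFP (adjusted p = 0.00212 and 0.022 by edgeR).

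Other mRNAs with a known TOP tract encode elongation and initiation factors among others, and their called members lay mostly on the same side as the ribosomal proteins. Of 20 such genes 19 were tested. In GSTA4 against GFP 8 were higher and 0 lower, with 42.1% higher against 14.7% of all genes, and 11 did not pass. In OSK against GFP 2 were higher and 10 lower (52.6% lower against 22.8%), in GFP against WT 9 higher and 1 lower (47.4% higher against 11.0%), and in OSK against GSTA4 2 higher and 16 lower (84.2% lower against 23.8%). Their medians were 0.17, -0.23, 0.19 and -0.36. Without GFP replicate 1 there were 6 higher and 0 lower in GSTA4 against GFP (31.6% higher against 10.9% of all genes). In OSK against GFP there were then 2 higher and 12 lower (63.2% lower against 20.4%). GFP against WT gave 13 higher and 1 lower (68.4% higher against 9.94%). The exceptions, named after their values were seen, were EEF1B2 and EIF3K, higher in OSK than in GFP, EEF1D, lower in GFP than in WT, and EEF1B2 and TPT1, higher in OSK than in GSTA4. EEF1D, an elongation exchange factor, was at -0.27 and TPT1 at 0.20 in those comparisons (edgeR adjusted p = 0.0071 and 0.0151). EIF2S3, a subunit of the factor that delivers the initiator tRNA, was at 238, 257 and 261 CPM in GFP, 269, 301 and 314 CPM in GSTA4 and 177, 198 and 202 CPM in OSK. It separated all 3 groups, at 0.22 ± 0.075 in GSTA4 and -0.39 ± 0.076 in OSK against GFP, and the first call ended without GFP replicate 1 (edgeR adjusted p = 0.119). EEF1B2, an exchange factor for elongation, went the other way in OSK, from 246, 287 and 290 CPM in GFP to 336, 363 and 381 CPM (0.39 ± 0.073, adjusted p = 0.000175 by edgeR). NACA, which guards nascent chains, was at 390, 434 and 413 CPM in GFP and at 337, 335 and 336 CPM in OSK.

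Of the factors that assemble ribosomes a part was called higher in GSTA4, and most did not pass. Of 45 biogenesis factors 16 were higher and 0 lower in GSTA4 against GFP (35.6% higher against 14.7% of all genes), and without GFP replicate 1 the count was 10 and 0 (22.2% against 10.9%). In OSK against GFP 8 were higher and 3 lower (17.8% and 6.67%, both below the 23.1% and 22.8% of all genes). In GFP against WT 0 were higher and 8 lower (17.8% lower against 11.2%), and in OSK against GSTA4 4 were higher and 19 lower (42.2% lower against 23.8%). NOB1, the nuclease that finishes the small-subunit RNA, was at 44.6, 46.3 and 44.2 CPM in GFP and at 65.9, 65.0 and 69.1 CPM in GSTA4 (0.57 ± 0.096, adjusted p = 0.000132 by edgeR). NPM1, a nucleolar chaperone, was at 702, 726 and 732 CPM in OSK, below the 887 to 975 CPM of GFP and the 997 to 1102 CPM of GSTA4. SBDS, which readies the large subunit for use, was higher in OSK than in GFP at 99.0, 97.6 and 96.9 CPM against 65.7, 75.8 and 65.6 CPM (0.50 ± 0.074, adjusted p = 1.2e-05 by edgeR).

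RNA polymerase I makes the ribosomal RNA. Of its 15 genes 2 were higher in GSTA4 against GFP, 4 were lower in OSK against GFP, 2 were higher and 1 lower in GFP against WT, and 6 were lower in OSK against GSTA4. The 13.3% higher in GSTA4 and the 26.7% lower in OSK, both against GFP, were near the 14.7% and 22.8% of all genes. Without GFP replicate 1 the GSTA4 count was 1. In GFP against WT 13.3% were higher and 6.67% lower, against 11.0% and 11.2% of all genes. In OSK against GSTA4 40% were lower, against 23.8% of all genes. POLR1F was at 27.8, 28.9 and 26.5 CPM in GFP and 44.3, 48.8 and 42.6 CPM in GSTA4, a rise of 0.71 ± 0.085 (adjusted p = 2.11e-06 by edgeR). POLR1E separated OSK from GSTA4 most, at 17.9, 23.7 and 20.9 against 37.7, 32.9 and 36.4 CPM. Poly(A) selection leaves the ribosomal RNA itself unmeasured. Of 5 dedicated chaperones of single ribosomal proteins, BCCIP was higher in GSTA4 against GFP (20% of the list), a call lost without GFP replicate 1. BCCIP and PDCD2 were lower in OSK against GSTA4 (40%). The shares of all genes were 14.7% higher and 23.8% lower in these 2 comparisons.

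Among 10 regulators of TOP mRNA translation, 1 was higher in GSTA4 against GFP (10% against 14.7% of all genes, and 0 without GFP replicate 1). In OSK against GFP 4 were higher and 1 lower (40% and 10%, against 23.1% and 22.8% of all genes). In OSK against GSTA4 5 were higher and 3 lower (50% and 30%, against 24.1% and 23.8%). EIF4EBP2, a repressor of cap-dependent translation, was at 293, 296 and 296 CPM in GFP and at 390, 395 and 396 CPM in OSK, a rise of 0.42 ± 0.053 (adjusted p = 1.66e-06 by edgeR). TSC1, part of the brake on mTORC1, was at 119, 108 and 97.8 CPM in GFP and at 79.5, 76.0 and 83.2 CPM in OSK (-0.44 ± 0.079, adjusted p = 0.000105 by edgeR).

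**Figure D5:**
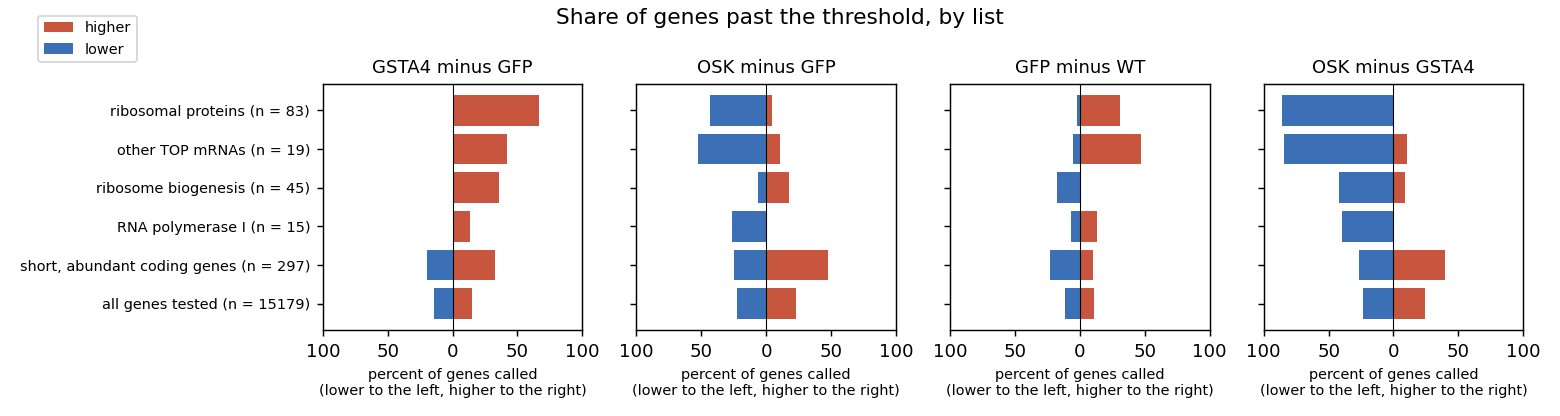
Percent of tested genes called higher (red, to the right) and lower (blue, to the left) for the ribosomal proteins, 4 other lists and all genes tested, 1 panel per comparison. Ribosomal proteins and other TOP mRNAs lean the same way in each panel, while short, abundant coding genes lean toward higher in both OSK panels.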

How the data were processed

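Poly(A) RNA from 12 ARPE-19 libraries was analysed from a table of whole-number read counts per gene, as deposited by the authors, with no normalization. The submitters' processing notes name STAR 2.7.1a and featureCounts 1.6.2 and the builds GRCh38, hg38, GRCm38 and mm10, with no roles; the annotation, the strand setting and the treatment of multi-mapped reads are not given in the sources used here. Reads of near-identical copies could therefore be split or lost. Libraries were grouped by their labels. Lines without a symbol (20014, holding 0.485% to 0.822% of reads) were left out of the tests. Named genes that passed edgeR's filterByExpr (15179) were fitted in one edgeR 4.0.16 quasi-likelihood model with TMM scaling and a mean per group (R 4.3.3), two-sided, with Benjamini-Hochberg adjustment and a threshold of 0.05. Standard errors are the fold change divided by the root of F. The procedure was tested on simulated data. Positions, coding lengths and exon overlaps came from GENCODE 29 and start-site windows from RefSeq on GRCh38.p14. The short-gene list used GENCODE coding lengths. DESeq2 1.42.0, other scalings and filters, a replicate block, WT as the reference and leaving out each library were the alternatives.

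The members, the lists and the rule for named genes were chosen with earlier results of these data known. The rule takes the 3 largest called rises and falls of each comparison with a mean of at least 1 CPM, 8 paralog pairs, the stalk, RPL5 and RPL11, RPS6, RPSA, RPS27A and RPS19, the highest and lowest member, and up to 3 genes of lowest adjusted p per list. The subsets by level, run length and coding length, the mitochondrial list and the chromosome windows were chosen after values were seen. Some items are not reported here.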

Additional observations from a re-analysis of the deposited data

Results flagged for a closer look

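GSTA4 and OSK moved 20 of the 83 tested members in opposite directions from GFP, each past the threshold, with the direct edgeR test of OSK against GSTA4 past it too, where 6.19% of all genes tested were called opposite ways in this manner and 3.24% in the members' order, higher in GSTA4 and lower in OSK. Of these 20, only RPL22 and RPS27L were also lower in OSK than in WT. Both comparisons use the same GFP libraries, so their opposition is not independent. Among the named members the direct log2 difference was -0.68 for RPL22, -0.74 for RPL12, -0.65 for RPS27L, -0.47 for RPL7, -0.54 for RPL5 and -0.52 for RPS19. The rises of RPL22, RPL7 and RPL5 in GSTA4 against GFP and the fall of RPS19 in OSK against GFP were lost in some fits that left out 1 library.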

How the results depend on the processing

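Other scalings, filters and DESeq2 kept the direction of the member median in all 4 comparisons. Of 2838 values of named members, 2592 kept their direction and side of the threshold, 144 gained the threshold, 95 lost it and 7 reversed; members past it in neither fit were counted as unchanged. Leaving out 1 library ended 17 of 68 named calls. It gave 35 to 66 members called in GSTA4 against GFP, 19 to 68 in OSK against GFP, 12 to 56 in GFP against WT, 68 to 75 in OSK against GSTA4 and 76 to 82 for any group; the lowest GSTA4 counts came without GSTA4 replicate 2 (35) and GFP replicate 1 (36). The medians ran from 0.16 to 0.27, -0.24 to -0.11, 0.12 to 0.23 and -0.43 to -0.38, and the shares of reads from 4.79% to 4.95% in WT, 5.36% to 5.72% in GFP, 6.29% to 6.47% in GSTA4 and 4.71% to 4.80% in OSK. Library size alone gave 63 called in OSK against GFP, upper quartile scaling 44 in GFP against WT, and a fit of only the 6 libraries compared 14 there, with fewer residual samples. Requiring 0.5 in size left 7, 0, 0 and 14 members in the order above; the 0 counts are by edgeR, which called 40 and 28 without that limit, and DESeq2 called 45 and 34. With WT as the reference the GSTA4 median was 0.40, the OSK median -0.0032 with 11 called, and OSK values reversed for RPS2 (0.12), RPL12 (0.045), RPS3A (0.030), RPL26L1 (-0.40), RPL7 (0.074), RPS6 (0.035) and RPL13A (0.00075); the cause was not tested. Without mitochondrial reads the shares were 5.18% in WT, 6.92% in GSTA4 and 5.10% in OSK. A replicate block called 64, 50, 40 and 74 members. Same-numbered libraries correlated at -0.020 to 0.17, and 1 pair, replicate 1 of GFP and of WT, exceeded 0.1. As 8 of 24 correlated best with their own number, the numbers were not taken as pairs. Without a filter the median of all genes shifted to -0.21, -0.31, 0.16 and 0 in the 4 comparisons. Members with few reads, such as RPS10, RPL39L and RPS27AP5, are limited by depth.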
